A study of Mus musculus with 27 samples.

Results

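This comparison asks how the heart transcriptome on postnatal day 14 differs when thyroid hormone synthesis is blocked in mouse pups under an alpha-adrenergic blocker. It sets 3 hearts of pups under propylthiouracil and phenoxybenzamine (PTU+PHE) against 3 hearts of pups under phenoxybenzamine without propylthiouracil (PHE). These are 6 of the 27 whole-heart RNA-seq libraries of the series, chosen by their treatment labels in sequencing set A. All pups were CD-1 mice, an outbred stock, and hearts were taken on postnatal day 14. Propylthiouracil, an inhibitor of thyroid peroxidase, was given to the mothers at 0.15% in an iodine-deficient diet, begun at E13.5 of gestation and continued after birth. Phenoxybenzamine, an irreversible alpha-adrenergic antagonist, was injected under the skin each day from postnatal day 1, at 10 µg per g per day, in both groups. So both groups carried the alpha block, and the groups differ in propylthiouracil and in the diet that came with it. The labels do not give the litter of a heart, so hearts of a group may be littermates, and the p-values then measure only the spread between these hearts. Groups used beside them were PTU and saline of set B, PTU+PHE+PRO and PHE+PRO of set A (PRO is propranolol, a beta-adrenergic antagonist, at 20 µg per g per day), and saline of set A.

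Thyroid hormone acts through nuclear receptors that bind DNA with a retinoid X receptor partner, activating some genes when the hormone is bound and repressing others. In rodents the hormone surges after birth, while the heart exchanges fetal contractile, channel and metabolic proteins for adult ones and its myocytes leave the cell cycle. Alpha1-adrenergic receptors of the heart signal through Gq proteins, and beta-adrenergic receptors signal through Gs and cyclic AMP.

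The table held 51826 genes, of which 19119 had enough reads to be tested. Assigned reads were 71796054, 58043981 and 52065876 in PTU+PHE hearts 1, 2 and 3, against 78913915, 54311081 and 46862777 in PHE hearts 1, 2 and 3. Read from Xist and the Y-linked genes, PTU+PHE heart 1 was male and hearts 2 and 3 were female, while all 3 PHE hearts were male. The libraries of both hearts numbered 3 had the least signal from long relative to short transcripts. The log2 difference between long and short transcripts was -0.21, -0.31 and -0.82 in the PTU+PHE hearts, against -0.27, -0.38 and -0.62 in the PHE hearts. Correlations of log2 values between hearts were 0.963 to 0.981 within PTU+PHE and 0.985 to 0.990 within PHE. Cardiomyocyte markers were abundant in all 6 libraries, as the tissue label says. The 12 markers summed to 53057 to 65064 CPM in PTU+PHE hearts, against 73776 to 84697 CPM in PHE hearts. The sum includes the abundant Myh6 and Actc1, lower in PTU+PHE hearts, and Myh7, higher there, as given below. The 5 members Tnnt2, Mybpc3, Actn2, Nkx2-5 and Ttn did not pass the test described below, so the sum is no measure of myocyte number. CPM are counts scaled to a common library size, for these sums the total of assigned reads. In whole-heart RNA, fewer cells of a type and less RNA per cell cannot be told apart.

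Of the 19119 genes tested, 7038 (36.8%) were called in PTU+PHE against PHE, meaning a Benjamini-Hochberg adjusted p under 0.05 in edgeR's quasi-likelihood test. Of these, 3489 (18.2%) were higher and 3549 (18.6%) were lower in PTU+PHE hearts. Counts of list members called in this comparison are to be read against these shares. A change of at least 2-fold was called for 1237 genes (6.47%) upward and for 1147 genes (6%) downward. The values of both groups did not overlap for 43.8% of all genes. The median log2 fold change of all genes was 0.04. In every fold change below, a positive value means higher in PTU+PHE hearts, the error is a standard error, and n is 3 hearts per group.

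**Figure D1:**
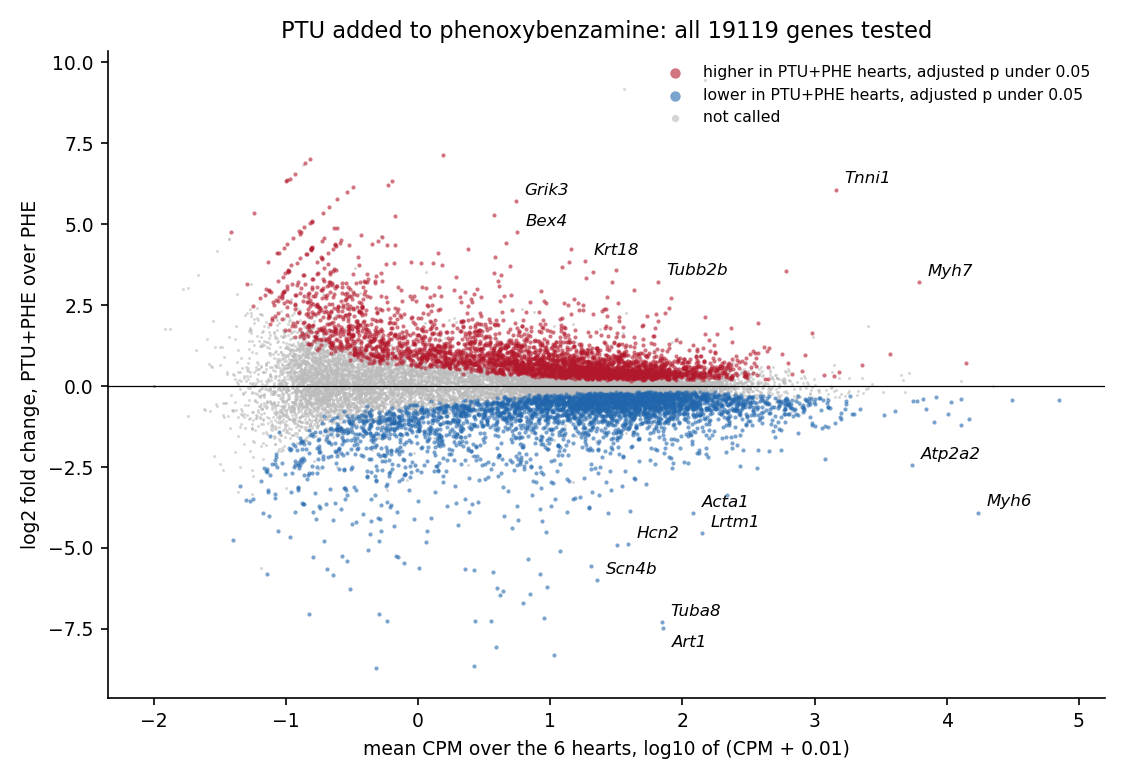
Log2 fold change of PTU+PHE over PHE for each of 19119 genes (vertical axis) against its mean CPM over the 6 hearts (log10 horizontal axis). Red and blue points are the genes called higher and lower in PTU+PHE hearts, and Tnni1 and Myh7 at the top right and Myh6 and Atp2a2 at the bottom right stand out among abundant genes.

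The largest rise among the genes named by rule, and the exchange of the major myosin, were in contractile genes. Tnni1 encodes slow skeletal troponin I, the fetal form of the inhibitory troponin subunit. It was 2299, 2865 and 3366 CPM in the 3 PTU+PHE hearts, against 36.7, 31.3 and 59.3 CPM in the 3 PHE hearts. The groups were far apart, with a 67.1-fold higher fitted level in PTU+PHE hearts (log2 fold change 6.07 ± 0.37, edgeR adjusted p 5.05e-11). Myh7, the slow beta myosin heavy chain of the fetal mouse ventricle, was 11940, 11832 and 9550 CPM in PTU+PHE hearts, against 1310, 1057 and 1206 CPM in PHE hearts. Its log2 fold change was 3.22 ± 0.14 (edgeR adjusted p 6.29e-14), 9.33-fold higher in PTU+PHE hearts. Myh6, which encodes the faster alpha chain found in adult mouse myocardium, went the other way. Its level was 2424, 2410 and 1602 CPM in PTU+PHE hearts, against 34862, 28713 and 33363 CPM in PHE hearts (log2 fold change -3.91 ± 0.18, edgeR adjusted p 6.29e-14).

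Put per kilobase of exon, so that levels of both genes can be set side by side, Myh7 made up 79.4%, 79.3% and 82.3% of the sum of Myh6 and Myh7 in the PTU+PHE hearts. It made up 2.85%, 2.79% and 2.74% in the PHE hearts. The means were 80.3% ± 1.72 in PTU+PHE and 2.80% ± 0.0525 in PHE hearts (SD, n = 3 each). The Tnni1 share of Tnni1 plus Tnni3 was 33.1%, 35.4% and 36.9% in PTU+PHE hearts, against 0.450%, 0.414% and 0.542% in PHE hearts. So the major myosin was exchanged, while the adult Tnni3 still made up most of troponin I RNA per kilobase in PTU+PHE hearts. The Tnni1 share was higher by 34.7 percentage points in PTU+PHE hearts per kilobase, and by 47.75 with reads not divided by length. The size of the Tnni3 majority thus depends on the exon lengths used, and the majority is stated per kilobase only. For both shares the groups did not overlap, and the two-sided exact permutation test gave p = 0.1, the smallest that 3 against 3 hearts allow (0.125 after Benjamini-Hochberg adjustment over 10 pairs). In set B, where no alpha blocker was given, the Myh7 share was 84.9% ± 0.543 in PTU hearts and 4.33% ± 0.0844 in saline hearts (SD, n = 3 each).

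Myh6 (chr14:54941921-54966927, GRCm38) and Myh7 (chr14:54970684-54994626) lie one behind the other on the minus strand, Myh7 upstream, and 3 non-coding genes of the locus were counted with them. Mir208a (chr14:54949060-54949142) lies inside the Myh6 gene and Mir208b (chr14:54975700-54975776) inside the Myh7 gene, both on the strand of their host. Mhrt (chr14:54968678-54974349), an antisense long non-coding RNA, starts between both genes on the plus strand and overlaps the 3′ end of Myh7. The mature microRNAs are shown because their seeds, bases 2 to 8 in capitals, are the same; 19 of 22 bases are the same at the same position (RefSeq, GRCm38.p6, both on the minus strand, chr14:54949072-54949093 and chr14:54975710-54975731).
mmu-miR-208a-3p: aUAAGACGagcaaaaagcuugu
mmu-miR-208b-3p: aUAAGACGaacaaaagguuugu

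Mir208a followed its host: it had 0.418, 0.299 and 0.122 CPM in PTU+PHE hearts, against 4.56, 2.94 and 3.28 CPM in PHE hearts (log2 fold change -3.62 ± 0.56, edgeR adjusted p 2.48e-05). Mir208b did not. Reads at Mir208b were 0.993, 0.732 and 0.183 CPM in PTU+PHE hearts, against 26.1, 22.7 and 20.2 CPM in PHE hearts, a log2 fold change of -5.10 ± 0.33 (edgeR adjusted p 4.61e-11) in hearts where Myh7 rose. Mhrt was 16.3, 11.2 and 3.74 CPM in PTU+PHE hearts, against 77.8, 74.6 and 74.3 CPM in PHE hearts. Its log2 fold change was -2.84 ± 0.31 (edgeR adjusted p 2.6e-07). For none of these 3 genes did the groups overlap. Mir208b begins 1351 bases beyond the annotated end of Mhrt, which lies on the other strand. The library kit does not mark strand, so reads from the Myh7 primary transcript and from an antisense transcript cannot be told apart here, and libraries of this kind do not measure the mature microRNAs. In set B the same genes moved in the same direction in PTU against saline hearts, with log2 fold changes of 3.58 for Myh7, -3.39 for Myh6, -4.14 for Mir208b and -1.81 for Mhrt.

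**Figure D2:**
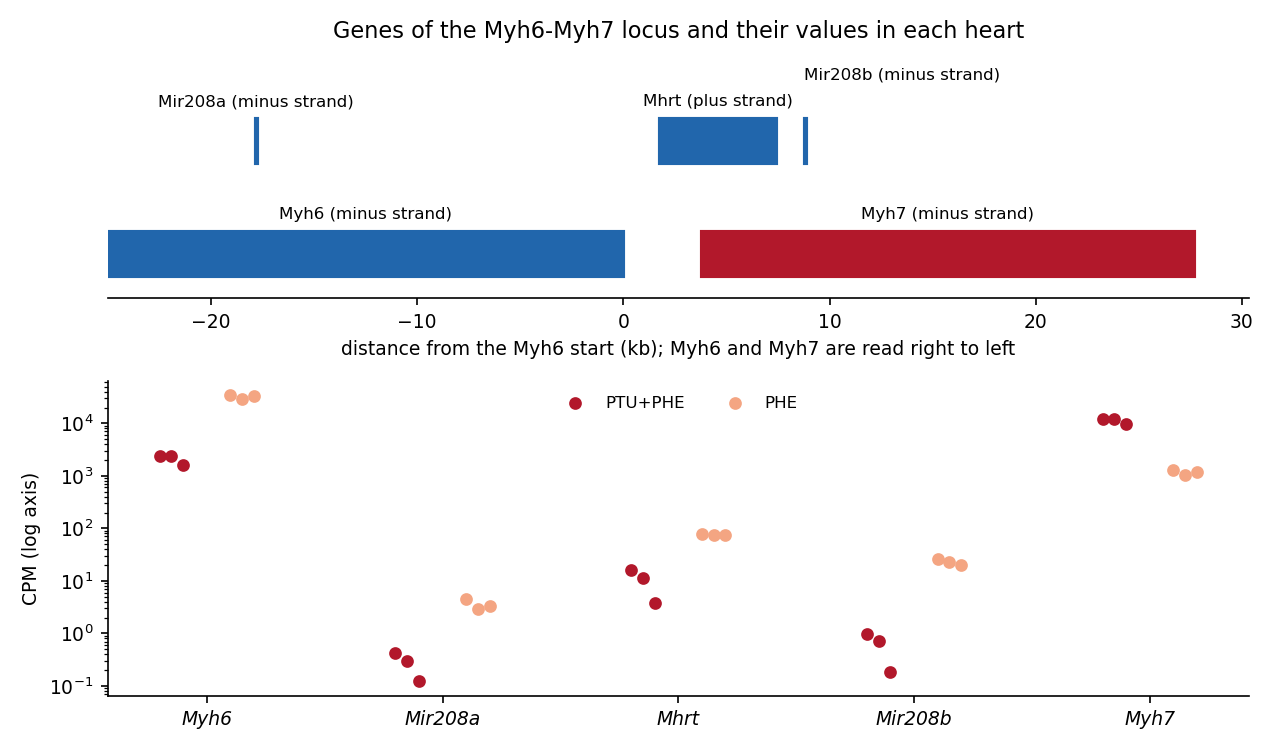
Top, the Myh6 to Myh7 locus, with distance from the Myh6 start in kb; bars are annotated genes, red where higher and blue where lower in PTU+PHE hearts. Bottom, CPM in each of 3 PTU+PHE and 3 PHE hearts on a log axis; the Myh7 points of PTU+PHE hearts lie above those of PHE hearts, and the points of the 4 other genes lie below.

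Among 14 fetal or embryonic sarcomere genes, Tnni1 and Myh7 were the 2 called higher, and 3 were called lower. Both counts were near the shares of all genes, 18.2% and 18.6%. Acta1, skeletal alpha-actin, was 11.3, 9.35 and 24.1 CPM in PTU+PHE hearts, against 305, 229 and 146 CPM in PHE hearts (log2 fold change -3.93 ± 0.45, edgeR adjusted p 8.71e-07). Acta2, smooth muscle actin, fell by 1.34 on the log2 scale. Tnnt1, slow skeletal troponin T, fell by 0.59, but its values overlapped between groups and the call was lost without PHE heart 3. The median of the 14 was 0.02, against 0.04 for all genes. PTU against saline in set B called 7 of the 14 higher and 3 lower, where 14.3% and 15.1% of all genes were called in these directions. The difference between both effects was itself called for Ankrd1, Mybpc2 and Tpm2, all 3 higher under PTU in set B. That test called 4.1% of all genes. The 9 members without a call under PHE are not shown to be unchanged, and the count of higher members was 3 with sex as a covariate and without PTU+PHE heart 2.

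Adult sarcomere genes tended downward: 10 of 24 were lower and 2 were higher, against 18.6% and 18.2% of all genes. Actc1, cardiac alpha-actin, was 9578, 7039 and 6571 CPM in PTU+PHE hearts, against 19655, 15299 and 18837 CPM in PHE hearts (log2 fold change -1.21 ± 0.15, edgeR adjusted p 9e-07). Tpm1, alpha-tropomyosin, fell by 1.12, Tnni3, cardiac troponin I, by 0.76, and the Z-disc genes Myoz2 and Tcap by 1.24 and 1.46 on the log2 scale. Myl2, the ventricular regulatory light chain, rose by 0.72 ± 0.17 (16035, 16339 and 19563 CPM in PTU+PHE hearts, against 9675, 8926 and 12924 CPM in PHE hearts). The call of Myom2, higher by 0.33, was lost in 9 of 15 alternatives and that of Myl3, lower by 0.35, in 10 of 15. Titin (Ttn), alpha-actinin 2 (Actn2) and Mybpc3 were not called, with log2 fold changes of 0.19 ± 0.18, -0.06 ± 0.09 and -0.18 ± 0.10.

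Genes known to be induced by thyroid hormone in heart or other tissues were mostly lower: 17 of 21 tested fell and 1 rose, with a median log2 fold change of -1.61, against 0.04 over all genes. Hcn2, a pacemaker channel, had 2.12, 2.81 and 2.73 CPM in PTU+PHE hearts, against 81.6, 75.3 and 66.8 CPM in PHE hearts. Its log2 fold change of -4.88 ± 0.17 had the smallest adjusted p among the genes named here (edgeR, 7.1e-16). Thrb, the beta thyroid hormone receptor, was 1.41, 0.965 and 0.956 CPM in PTU+PHE hearts, against 18.1, 13.6 and 15.3 CPM in PHE hearts (log2 fold change -3.80 ± 0.18, edgeR adjusted p 2.88e-13). The groups were separate for both genes. Hr, a corepressor that binds the receptor, fell by 3.73, and Klf9, a transcription factor, by 3.08 on the log2 scale. Atp2a2 encodes SERCA2, the pump that returns calcium to the sarcoplasmic reticulum. It was 1669, 1749 and 1702 CPM in PTU+PHE hearts, against 10275, 8727 and 8771 CPM in PHE hearts, 5.42-fold lower in PTU+PHE hearts (log2 fold change -2.44 ± 0.14, edgeR adjusted p 5.75e-12). Kcnd2 and Kcnd3, the potassium channels of the transient outward current, fell by 3.71 and 2.55.

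Smaller falls were found for Slc2a4, the insulin-sensitive glucose transporter GLUT4 (-1.61 ± 0.14), Ucp3 (-1.46 ± 0.31), Pdk4 (-1.32 ± 0.34) and Ryr2, the calcium release channel (-1.14 ± 0.21). The call of Adrb1, the beta1-adrenergic receptor, at -0.70 ± 0.22 was lost without PHE heart 1 and without both hearts numbered 3. That of Thrsp was lost in 7 of 15 alternatives. Me1, Ppargc1a and Cpt1b were not called, and Dio1 had too few reads to be tested. Of the 8 tested genes known to be repressed by the hormone, Myh7, Dio2, Thra and Pln rose and Adcy5 fell. Dio2, the deiodinase that activates thyroxine, had 6.43, 6.49 and 6 CPM in PTU+PHE hearts, against 1.63, 1.76 and 1.14 CPM in PHE hearts (log2 fold change 2.05 ± 0.26, edgeR adjusted p 1.07e-06). Thra, the alpha receptor, rose by 0.74 ± 0.08 while Thrb fell. Pln, phospholamban, which restrains SERCA2, rose by 0.44 ± 0.11. Nppa, atrial natriuretic peptide, scattered too widely to be read, at 182, 2.31 and 91.6 CPM in PTU+PHE hearts against 34.3, 291 and 111 CPM in PHE hearts.

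**Figure D3:**
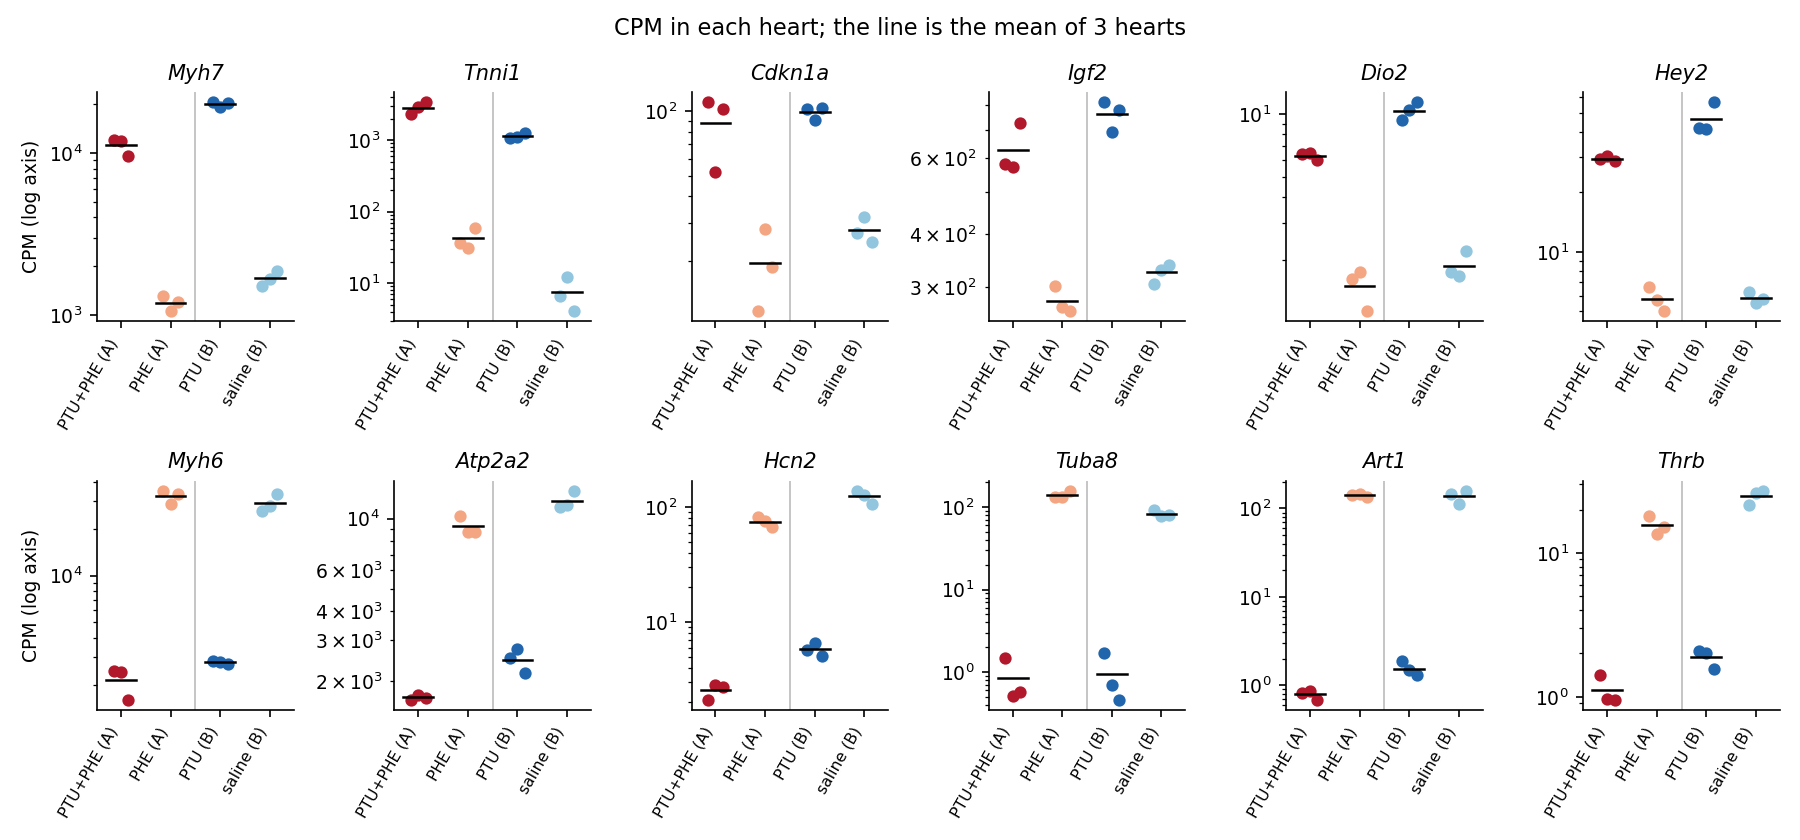
CPM in each heart for 12 genes on log axes, with PTU+PHE and PHE of set A left of the grey line and PTU and saline of set B right of it; black lines are means of 3 hearts. The 6 genes of the upper row are higher and the 6 of the lower row lower in PTU+PHE than in PHE hearts, with no overlap.

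The sequence just upstream of the genes that changed most was searched for AGGTCA, the hexamer that is the core of thyroid hormone response elements and of many other nuclear receptor sites, or its reverse complement TGACCT. The window was 250 bases before the start in RefSeq (GRCm38.p6). Of the 12 largest falls, 9 had a promoter in the table and 4 of these held the hexamer, and of the 12 largest rises 2 of 9 held it. A gene was counted if any of its promoters held the hexamer. Of genes with a promoter, it was found for 15.9% of those lower and 14.4% of those higher by at least 2-fold. Over all genes tested it was found for 1704 of 12636 with a promoter. Counted by promoter and not by gene, it was in 14% of all promoters in the table. Promoters of the 2 myosin genes and of 3 large falls are shown with the hexamer in capitals, each 5′ to 3′ on the strand of its gene. The 3 falls shown are among the 4 of 9 that held it, so they do not stand for the others. Myh6 (chr14:54966608-54966857) and Myh7 (chr14:54994550-54994799), both on the minus strand, held none in this window. Another Myh7 promoter (chr14:54994627-54994876), not shown, also held none. The promoters of Tnni1, the largest rise named by rule, are not shown and held none either. Hcn2 (chr10:79716384-79716633, plus strand) held the reverse complement at -249 and -168 from the start. Art1 (chr7:102101493-102101742, plus strand) held it as written at -150, and Tuba8 (chr6:121210484-121210733, plus strand) held the reverse complement at -82. A match, or the lack of one, is a description of the letters and not of the presence or absence of a binding site.
Myh6: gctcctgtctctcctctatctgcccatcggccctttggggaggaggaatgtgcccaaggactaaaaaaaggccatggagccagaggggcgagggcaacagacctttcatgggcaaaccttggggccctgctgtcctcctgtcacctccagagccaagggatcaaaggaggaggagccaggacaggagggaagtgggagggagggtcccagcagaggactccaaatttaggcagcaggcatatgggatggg
Myh7: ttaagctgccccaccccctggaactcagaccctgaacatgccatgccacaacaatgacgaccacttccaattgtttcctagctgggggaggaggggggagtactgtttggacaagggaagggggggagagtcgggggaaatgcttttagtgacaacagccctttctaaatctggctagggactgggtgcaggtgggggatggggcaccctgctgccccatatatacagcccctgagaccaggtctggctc
Hcn2: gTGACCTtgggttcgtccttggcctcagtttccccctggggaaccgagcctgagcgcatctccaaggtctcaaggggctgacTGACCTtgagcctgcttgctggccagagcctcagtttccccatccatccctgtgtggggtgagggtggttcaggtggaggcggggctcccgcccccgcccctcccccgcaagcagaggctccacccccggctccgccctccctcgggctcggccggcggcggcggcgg
Art1: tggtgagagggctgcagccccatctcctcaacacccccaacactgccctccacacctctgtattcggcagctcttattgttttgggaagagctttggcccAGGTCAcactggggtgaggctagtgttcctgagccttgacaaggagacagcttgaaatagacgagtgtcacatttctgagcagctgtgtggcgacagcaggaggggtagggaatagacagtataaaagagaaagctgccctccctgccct
Tuba8: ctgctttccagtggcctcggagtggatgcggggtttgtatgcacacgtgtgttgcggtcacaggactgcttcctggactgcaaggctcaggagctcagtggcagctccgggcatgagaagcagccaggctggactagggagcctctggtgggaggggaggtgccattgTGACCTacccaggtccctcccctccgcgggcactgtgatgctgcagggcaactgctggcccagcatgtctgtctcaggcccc

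The 2 largest falls among the genes named by rule, which were called, averaged at least 5 CPM and did not overlap, were near losses of an abundant transcript. Art1, an ADP-ribosyltransferase of the muscle cell surface, was 0.823, 0.865 and 0.692 CPM in PTU+PHE hearts, against 143, 148 and 136 CPM in PHE hearts (log2 fold change -7.47 ± 0.31, edgeR adjusted p 6.29e-14). Tuba8, an alpha-tubulin of muscle and testis, was 1.48, 0.516 and 0.570 CPM in PTU+PHE hearts, against 131, 131 and 157 CPM in PHE hearts (log2 fold change -7.28 ± 0.39, edgeR adjusted p 6.86e-12). Scn4b, a sodium channel beta subunit, was also among the 12 largest falls, with 0.588, 0.881 and 0.651 CPM in PTU+PHE hearts, against 57.9, 52.3 and 24 CPM in PHE hearts (log2 fold change -5.99 ± 0.42). All 3 were also close to absent in PTU hearts of set B, with log2 fold changes of -6.47, -6.40 and -5.67 against saline. Rtn4r, the Nogo receptor, fell by 6.2, Lrrc15 by 5.57, Itgb6, the integrin beta6 subunit, by 5.34, Pla2g5, a secreted phospholipase, by 4.9 and Lrtm1 by 4.55 on the log2 scale. For each of these 5 genes no PTU+PHE value reached the lowest PHE value. The processed pseudogene Got2-ps1 stood at 0.118, 0.150 and 0.102 CPM in PTU+PHE hearts, against 18.6, 16.2 and 18.8 CPM in PHE hearts (-7.15 ± 2.09). Its reads can come from the parent gene Got2, its call was lost without both hearts numbered 3 (edgeR adjusted p 0.0588), and in set B it was not called in PTU against saline (log2 fold change 0.89).

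Most of the other large rises named by the same rule, Myh7 apart, were of genes with a low level in PHE hearts. Grik3, a kainate-type glutamate receptor subunit, had 14.7, 7.32 and 10.3 CPM in PTU+PHE hearts, against 0.249, 0.186 and 0.149 CPM in PHE hearts (log2 fold change 5.72 ± 0.41, edgeR adjusted p 2.58e-10). Members of the Bex and Tceal family of small X-linked proteins rose together, Bex4 by 4.76, Tceal7 by 3.69 and Bex1 by 3.59 on the log2 scale. Krt18, a simple-epithelium keratin, had 35.4, 21.8 and 46.0 CPM in PTU+PHE hearts, against 1.97, 2.47 and 2.66 CPM in PHE hearts (log2 fold change 3.87 ± 0.29). Its partner Krt8 rose by 3.24 ± 0.32. Cited1, a transcriptional co-activator, rose by 3.52 and the beta-tubulin Tubb2b by 3.23. Among 13 tubulin genes 5 rose and 4 fell, against 18.2% and 18.6% of all genes. Stbd1, a glycogen-binding protein, was 12.7, 64.5 and 24.5 CPM in PTU+PHE hearts, against 3.17, 3.29 and 3.56 CPM in PHE hearts, higher in each heart but uneven. The ribosomal pseudogene Rps24-ps3 rested on PTU+PHE heart 1, with 68.3, 3.09 and 6.55 CPM in PTU+PHE hearts against 1.73, 2.26 and 1.47 CPM in PHE hearts. Its call was lost in 4 of 15 alternatives, among them without that heart and in fits of set A alone and of only the groups compared.

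Ion channel genes were lower for 18 of 31 tested and higher for 2, Kcnq1 and Kcne1, the subunits of the slow delayed rectifier (log2 fold changes 0.47 and 0.85). Besides Hcn2, Scn4b and the Kcnd genes, Scn4a, a sodium channel of skeletal muscle, was 1.83, 2.16 and 1.28 CPM in PTU+PHE hearts, against 24, 20 and 16.1 CPM in PHE hearts (log2 fold change -3.50 ± 0.35, edgeR adjusted p 7.56e-08). Kcnj3, a channel gated by G proteins, fell by 2.19 ± 0.36. Calcium handling genes were lower for 13 of 24 and higher for 2. Beyond Atp2a2 and Ryr2, Camk2b, a calmodulin kinase, fell by 2.71 ± 0.16, Hrc, a calcium-binding protein of the reticulum, by 1.99 ± 0.12, and Jph2, which ties the reticulum to the T tubule, by 0.82 ± 0.12. Hrc was 249, 225 and 198 CPM in PTU+PHE hearts, against 963, 795 and 907 CPM in PHE hearts. Slc8a1, the sodium-calcium exchanger, and Casq2, calsequestrin, were not called, with log2 fold changes of 0.15 ± 0.33 and -0.24 ± 0.12. Medians were -0.65 for the channel list and -0.45 for the calcium list, against 0.04 over all genes.

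Of 30 adrenergic signalling genes, the pathway on which the blocker acts, 5 were called higher and 10 lower, against 18.2% and 18.6% of all genes. The share called higher was near that of all genes. Among receptors, Adra1b, an alpha1 receptor, was 35.7, 37.1 and 49.8 CPM in PTU+PHE hearts, against 67.1, 48.6 and 57.1 CPM in PHE hearts. Its values overlapped between the groups, and its call (log2 fold change -0.50 ± 0.16, edgeR adjusted p 0.0192) was lost in 4 of 15 alternatives. Adra1a was not called, at -0.71 ± 0.33. Downstream, the adenylyl cyclases Adcy9 and Adcy5 fell by 1.41 and 0.63, and the protein kinase A subunits Prkaca and Prkar2a by 0.31 and 0.53. Rising members were Gnas, the stimulatory G protein (0.81), the phosphodiesterase Pde3a (0.75), the regulatory subunit Prkar1a (0.72), the phosphatase inhibitor Ppp1r1a (1.47) and Rgs2 (1.18), whose call was lost in 5 of 15 alternatives. The PTU effect under PHE and the PTU effect alone in set B differed, by the test of that difference, for 5 of the 30, against 4.1% of all genes. These were Adra1b, Adra1d, Arrb1, Adcy5 and Adcy9. Adra1b fell by 1.36 with PTU alone and by 0.50 under PHE (difference 0.86 ± 0.23, edgeR adjusted p 0.0371).

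Of 18 cyclic AMP-responsive early genes 1 was called higher and 2 lower, against 18.2% and 18.6% of all genes. Log2 fold changes were -1.79 to 1.28 over the list. Without overlap, 5 members were lower and 1 higher, against 21.7% and 22.1% of all genes. A fit of only the groups compared called 4 lower. Per1, a clock gene, was 222, 174 and 113 CPM in PTU+PHE hearts, against 42.4, 46.6 and 121 CPM in PHE hearts, so the groups overlapped. Dusp1 and Klf4 fell by 0.90 and 0.68. The calls of Per1 and Dusp1 were each lost in 4 of 15 alternatives. PTU against saline in set B called 11 of the 18 lower and 1 higher, against 15.1% and 14.3% of all genes. PTU+PHE+PRO against PHE+PRO called 13 lower and none higher, against 22.3% and 24.7% of all genes. The test of the difference to PTU alone called none of the 18, against 4.1% of all genes. That to both blockers called Nr4a1, Sik1 and Ppargc1a, against 1.05% of all genes.

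Most genes of 2 cell cycle lists were called higher in PTU+PHE hearts. Of 49 genes for G2 and mitosis, 38 rose and 1 fell, with a median log2 fold change of 0.85, and of 40 genes for G1 and DNA synthesis 25 rose and 1 fell, with a median of 0.61. Ube2c, an enzyme of the anaphase-promoting complex, had 35.5, 28.2 and 37.1 CPM in PTU+PHE hearts, against 8.14, 12.9 and 10.3 CPM in PHE hearts (log2 fold change 1.69 ± 0.28, edgeR adjusted p 5.96e-05). The mitotic phosphatase Cdc25c rose by 1.93 ± 0.27 and Racgap1, needed for cytokinesis, by 1.18 ± 0.21. In the replication list, Rfc3, a clamp loader subunit, rose by 1.53 ± 0.19, thymidine kinase Tk1 by 1.28 ± 0.15, the licensing factor Cdt1 by 1.07 ± 0.24 and DNA ligase Lig1 by 1.04 ± 0.19. The 2 that fell were Ung, uracil-DNA glycosylase (-1.97 ± 0.17), and Cenpa, a centromere histone (-0.91 ± 0.11). Not called were 10 of the 49, among them Mki67, Top2a, Foxm1 and Aurkb. Another 14 of the 40 were not called, among them Pcna, Mcm2 and Ccne1. Genes without a call are not shown to be unchanged. The count for G1 and DNA synthesis was 14 without PTU+PHE heart 2, and that for G2 and mitosis was 25 without both hearts numbered 3.

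PHE against saline of set A, a comparison that shares the PHE hearts, called 13 of the 49 higher, and 4 of the 40, a share near that of all genes. Of all genes, 8.14% were higher and 6.64% lower in it. PTU against saline in set B called 4 of the 49 and 6 of the 40 higher, where 14.3% of all genes were called higher. PTU+PHE+PRO against PHE+PRO raised 47 and 35, against 24.7% of all genes called higher and 22.3% lower there. The test of the difference between the PTU effects under PHE and alone called 1 gene of each list, Cenpa and Rfc4, so the larger count under PHE is not shown to be a difference gene by gene. Among 20 inhibitors and exit genes, 9 rose and 2 fell. Cdkn1a, the cyclin-dependent kinase inhibitor p21, was 109.9, 52.1 and 102 CPM in PTU+PHE hearts, against 11.7, 28 and 18.8 CPM in PHE hearts (log2 fold change 2.18 ± 0.25, edgeR adjusted p 4.88e-07). Under both blockers PTU moved Cdkn1a by 0.03, and the difference was called (edgeR adjusted p 0.003). The cyclins Ccnd2 and Ccnd3 rose by 0.60 and 0.57, and Meis1, a transcription factor that holds mouse myocytes out of the cycle, and its relative Meis2 by 0.45 and 0.57.

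Genes of energy metabolism that were called were mostly lower in PTU+PHE hearts. In the citric acid cycle and its shuttles 20 of 23 genes fell and 1 rose, with a median of -0.72. Citrate synthase (Cs) was 1173, 1112 and 1121 CPM in PTU+PHE hearts, against 2153, 1845 and 2042 CPM in PHE hearts (log2 fold change -0.83 ± 0.08, edgeR adjusted p 3.71e-08). Ogdh, of the oxoglutarate dehydrogenase complex, fell by 1.01 ± 0.11 and the transaminases Got1 and Got2 by 1.18 ± 0.11 and 1.11 ± 0.10. Oxidative phosphorylation genes of the nucleus were lower for 27 of 51 and higher for none, with a median of -0.40. That count was 42 without PTU+PHE heart 3, 40 with an offset for transcript length and 18 in a fit of only these 2 groups. Cox7a1, the heart and muscle form of a cytochrome oxidase subunit, fell by 1.25 ± 0.18 and the complex I subunit Ndufs8 by 0.90 ± 0.15. Of 13 genes of the mitochondrial genome 7 fell, a count that was 3 without PHE heart 2, and mt-Nd5 was lower by 1.03 ± 0.17. Mitochondrial reads were 15% to 15.8% of all reads in PTU+PHE hearts, against 14.5% to 19.7% in PHE hearts. PHE against saline of set A, which shares the PHE hearts, raised 24 of the 51 oxidative phosphorylation genes and lowered none. It raised 3 of the 23 citric acid cycle genes and lowered none, and raised 7 of 35 fatty acid oxidation genes and lowered 1. Of all genes, 8.14% were higher and 6.64% lower in it.

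Cytochrome oxidase subunits have a ubiquitous form and a heart and muscle form, and the ubiquitous share was higher for all 3 pairs measured. Cox7a2 made up 47.5%, 47.3% and 55.0% of Cox7a1 plus Cox7a2 per kilobase in PTU+PHE hearts, against 31.4%, 30.7% and 29.4% in PHE hearts. The Cox8a share averaged 35.7% ± 2.63 in PTU+PHE and 26.1% ± 3.46 in PHE hearts, and the Cox6a1 share 18.4% ± 1.07 in PTU+PHE and 14.1% ± 0.838 in PHE hearts (SD, n = 3 each). The groups did not overlap for any of the 3 pairs (two-sided exact permutation p = 0.1 each, the smallest possible). Of the genes in these pairs only Cox7a1 was itself called. The share of Slc2a1, the basal glucose transporter, was 10.2% ± 1.70 in PTU+PHE and 3.28% ± 0.271 in PHE hearts, with Slc2a1 itself not called (log2 fold change 0.13 ± 0.15). The Ckb share of cytosolic creatine kinase was 4.87% ± 1.11 in PTU+PHE and 4.57% ± 0.489 in PHE hearts, which overlapped (exact permutation p = 0.8).

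Fuel use genes fell in part. Of 27 genes of glycolysis and glycogen, 17 fell and 1, Aldoc, rose. Hk2, hexokinase 2, was 70.4, 66.5 and 51.8 CPM in PTU+PHE hearts, against 260, 215 and 234 CPM in PHE hearts (log2 fold change -1.91 ± 0.10, edgeR adjusted p 5.06e-13). Of 35 fatty acid oxidation genes, 14 fell and 3 rose. Cpt2, Acadvl and Pnpla2 fell by 0.96, 0.86 and 0.92 on the log2 scale. The 3 that rose were Cpt1a, Acot2 and Acot1, of which Acot1, a cytosolic acyl-CoA thioesterase, was 79.8, 108 and 177 CPM in PTU+PHE hearts against 26.7, 27.5 and 21.8 CPM in PHE hearts (log2 fold change 2.26 ± 0.31, edgeR adjusted p 7.88e-06). Ckmt2, the mitochondrial creatine kinase of muscle, fell by 2.26 ± 0.16 and Ckm, its cytosolic counterpart, by 0.86 ± 0.11. Of 19 regulators of mitochondria 8 fell and none rose, among them Ppard (-1.52 ± 0.18), Perm1 (-1.20 ± 0.11), Ppargc1b (-1.01 ± 0.17) and the fusion protein Mfn2 (-0.88 ± 0.11).

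Genes of fetal growth rose. Of 15 imprinted growth genes 9 rose and none fell, with a median of 0.74. Igf2, the fetal insulin-like growth factor, was 582.2, 574 and 726 CPM in PTU+PHE hearts, against 303, 270.5 and 264 CPM in PHE hearts (log2 fold change 1.17 ± 0.09, edgeR adjusted p 1.27e-09). The neighbouring non-coding H19 rose by 1.94 ± 0.12, Mest by 1.11 ± 0.14, the Igf2 receptor Igf2r by 1.02 ± 0.11 and the adaptor Grb10 by 0.74 ± 0.11. Dlk1, a Notch-like ligand, had 11.8, 11.3 and 3.36 CPM in PTU+PHE hearts, against 0.425, 0.456 and 0.348 CPM in PHE hearts (log2 fold change 4.41 ± 0.65). In the insulin-like growth factor axis 8 of 15 rose and 3 fell, with the binding proteins Igfbp3 higher by 1.04 and Igfbp6 and Igfbp7 lower by 1.78 and 1.26. PTU against saline in set B called 10 of the imprinted genes higher and 1 lower, against 14.3% and 15.1% of all genes. No difference between both effects was called for any of the 15.

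Cardiac transcription factors rose for 8 of 23 and fell for 4, against 18.2% and 18.6% of all genes. Hey2, a Notch target of the ventricle, was 29.2, 30.3 and 28.7 CPM in PTU+PHE hearts, against 6.63, 5.72 and 5.03 CPM in PHE hearts (log2 fold change 2.34 ± 0.14, edgeR adjusted p 7.65e-12). Irx5, Gata6 and Irx4 rose by 0.96, 0.92 and 0.85, and Nfix, a factor of postnatal maturation in muscle, fell by 0.91. Wnt and BMP pathway genes split, with 6 of 22 higher and 7 lower, against the same shares of all genes. Nkd2, a Wnt antagonist, was 56.0, 43.2 and 60.2 CPM in PTU+PHE hearts, against 5.79, 6.13 and 5.37 CPM in PHE hearts (log2 fold change 3.20 ± 0.24). The ligand Bmp7 rose by 2.5 ± 0.19 and Sfrp2 by 1.88 ± 0.22, while Wnt5a and Bmp4 fell by 1.55 ± 0.22 and 1.26 ± 0.18.

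The remaining lists are read against the 18.2% of all genes called higher and the 18.6% called lower. Of 24 sterol synthesis genes 6 rose and 1, Stard4, fell. Lss, lanosterol synthase, rose by 1.38, and the count was 2 without both hearts numbered 3. Of 38 ribosomal protein genes 6 rose, a share near that of all genes, and none fell. The number that rose was 0 without PTU+PHE heart 3 and 18 without PHE heart 3. PHE against saline of set A raised 29, against 8.14% of all genes. Of 10 genes of the T tubule and triad 6 fell and 1, Myoz1, rose. At the intercalated disc 5 of 14 fell, among them plakoglobin (Jup) by 0.73 and vinculin (Vcl) by 0.99, and Ctnna3 rose. Of 13 integrin genes 5 fell, with Itga11 and Itga7 lower by 2.28 and 1.4 besides Itgb6, and Itgb3 rose. In the integrated stress list 4 of 15 rose and 5 fell. Chac1, which degrades glutathione, fell by 3.65, while Psat1, of serine synthesis, rose by 1.37. Among glucocorticoid targets 3 of 16 rose and 3 fell, the shares found over all genes, with the metallothionein genes Mt1 and Mt2 higher by 1.1 and 2.62. Of 8 ventricular myocyte markers 5 rose and Myl3 fell, and of 10 atrial markers 2 rose and 2 fell, again near the shares of all genes.

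Among genes of the matrix and markers of cells other than myocytes, the matrix, endothelial and macrophage lists held mostly lower calls, the neutrophil list held only higher ones, and others were split. Of 34 extracellular matrix genes 18 fell and 2 rose. Col4a1, a basement membrane collagen, was 1083, 817 and 771 CPM in PTU+PHE hearts, against 1881, 2063 and 1916 CPM in PHE hearts (log2 fold change -1.13 ± 0.14, edgeR adjusted p 8.57e-07). Its partner Col4a2 fell by 1.19 ± 0.13, and Postn, periostin, rose by 1.09 ± 0.14. PTU against saline in set B called 8 matrix genes higher and 6 lower, against 14.3% and 15.1% of all genes. The difference between both effects was called for Col4a1, Col4a2, Lama4 and Bgn, against 4.1% of all genes. Of 17 endothelial markers 12 fell and none rose, among them Aplnr (-1.52 ± 0.15), Tie1 (-1.15 ± 0.10) and Pecam1 (-0.67 ± 0.09). Summed and scaled to total reads only, as for all marker sums here, the endothelial markers were 2259 to 2823 CPM in PTU+PHE hearts. They were 3087 to 3518 CPM in PHE hearts. Of 16 macrophage markers 13 fell and none rose, and their sum was 132 to 154 CPM in PTU+PHE hearts, against 188 to 265 CPM in PHE hearts. Csf1r, the receptor that sustains macrophages, was 14.0, 18.3 and 15.4 CPM in PTU+PHE hearts, against 25.8, 28.5 and 34.7 CPM in PHE hearts (log2 fold change -0.90 ± 0.11).

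Of 12 lymphocyte markers 5 fell and none rose, among them the B-cell genes Cd79a, Cd79b, Ms4a1 and Ighm. Ighm, the heavy chain of immunoglobulin M, was 3.65, 1.91 and 3.34 CPM in PTU+PHE hearts, against 8.26, 9.53 and 8.56 CPM in PHE hearts (log2 fold change -1.56 ± 0.25, edgeR adjusted p 3.35e-05). Neutrophil markers rose for 5 of 13 and fell for none, with S100a8 at 11.4, 29.1 and 15 CPM in PTU+PHE hearts, against 3.45, 6.73 and 7.02 CPM in PHE hearts. That count was 1 without PTU+PHE heart 2, in which the summed neutrophil markers were highest at 131.8 CPM. PHE against saline of set A raised 12 of the 13, against 8.14% of all genes. Of 12 fibroblast markers 6 fell, a count that was 3 without PTU+PHE heart 3, and 1 rose; of 12 smooth muscle and pericyte markers 6 fell, among them Rgs5 by 0.94, and Cnn1 rose by 1.8. Dbh, the noradrenaline-making enzyme of sympathetic nerves, was 1.78, 0.782 and 1.30 CPM in PTU+PHE hearts, against 12.1, 11.4 and 16.3 CPM in PHE hearts (log2 fold change -3.35 ± 0.31, edgeR adjusted p 1.32e-08). Of 9 nerve and Schwann cell markers tested it was 1 of 4 that fell, a count that was 1 without PTU+PHE heart 3, and Chga was at 0 in all 6 hearts. Of 10 epicardial markers 2 rose and 1 fell, with a median of 1.57. Of 7 lymphatic markers 2 rose and 1 fell, of 9 adipocyte markers Dio2 rose and none fell, and of 9 erythroid markers 3 fell and none rose. The erythroid count was 1 without both hearts numbered 3. Summed fibroblast markers, scaled to total reads only, were 3997 to 5043 CPM in PTU+PHE hearts, against 4573 to 4702 CPM in PHE hearts. They overlapped on that scale. On the scale used for single genes the PHE sums lie higher relative to the PTU+PHE sums, so the overlap is not shown to hold there. Whether changes in cell make-up take part in the changes of the other gene groups was not tested.

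**Figure D4:**
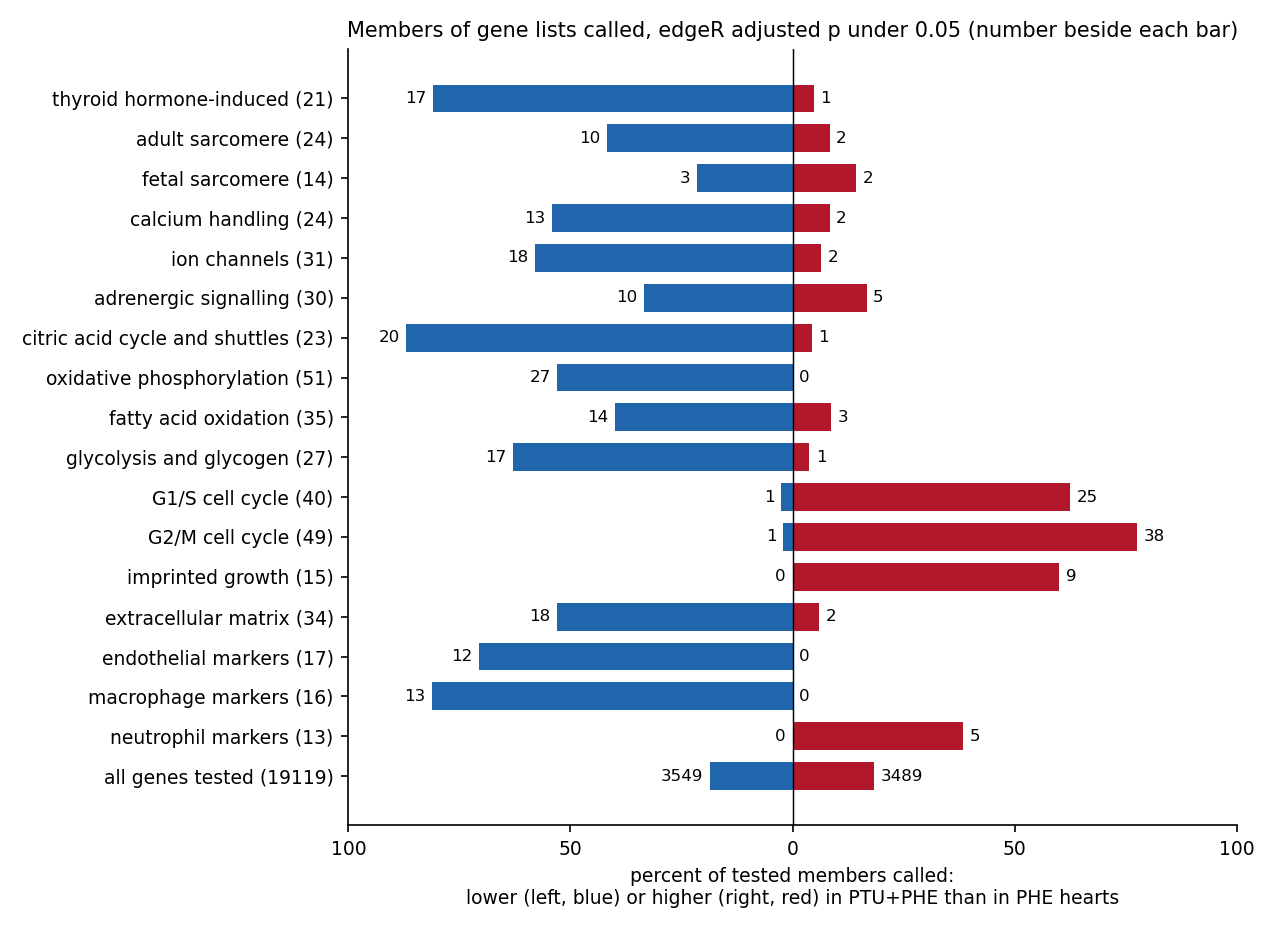
Percent of the tested members of each gene list (number tested in brackets) that were called higher (red, right) or lower (blue, left) in PTU+PHE than in PHE hearts, with the number of members beside each bar. The thyroid hormone-induced and citric acid cycle lists lie mostly to the left, both cell cycle lists mostly to the right, and all 19119 genes are at the bottom for comparison.

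The PTU effect under the alpha blocker was then set beside the PTU effect without it. Across the 10799 genes with a mean of at least 5 CPM, log2 fold changes of PTU+PHE over PHE and of PTU over saline in set B, which share no library, correlated with r = 0.77 and a slope of 0.86, a description across genes that are not independent replicates. Both comparisons called 3543 genes, 50.3% of the calls under PHE and 63.1% of those in set B, and 3481 of these had the same sign. The test of the difference called 783 genes (4.1% of those tested), 268 (1.4%) with a more positive and 515 (2.69%) with a more negative effect under PHE. This count was 232 without PHE heart 1 and 1485 without PTU+PHE heart 1. A difference between the effects cannot be told apart from a difference between the sequencing sets, since PTU alone is in set B. Within set A, PTU+PHE+PRO against PHE+PRO gave r = 0.83 with 5487 shared calls, and the test of that difference called 200 genes (1.05%), a count that was 11 in a fit of set A alone.

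**Figure D5:**
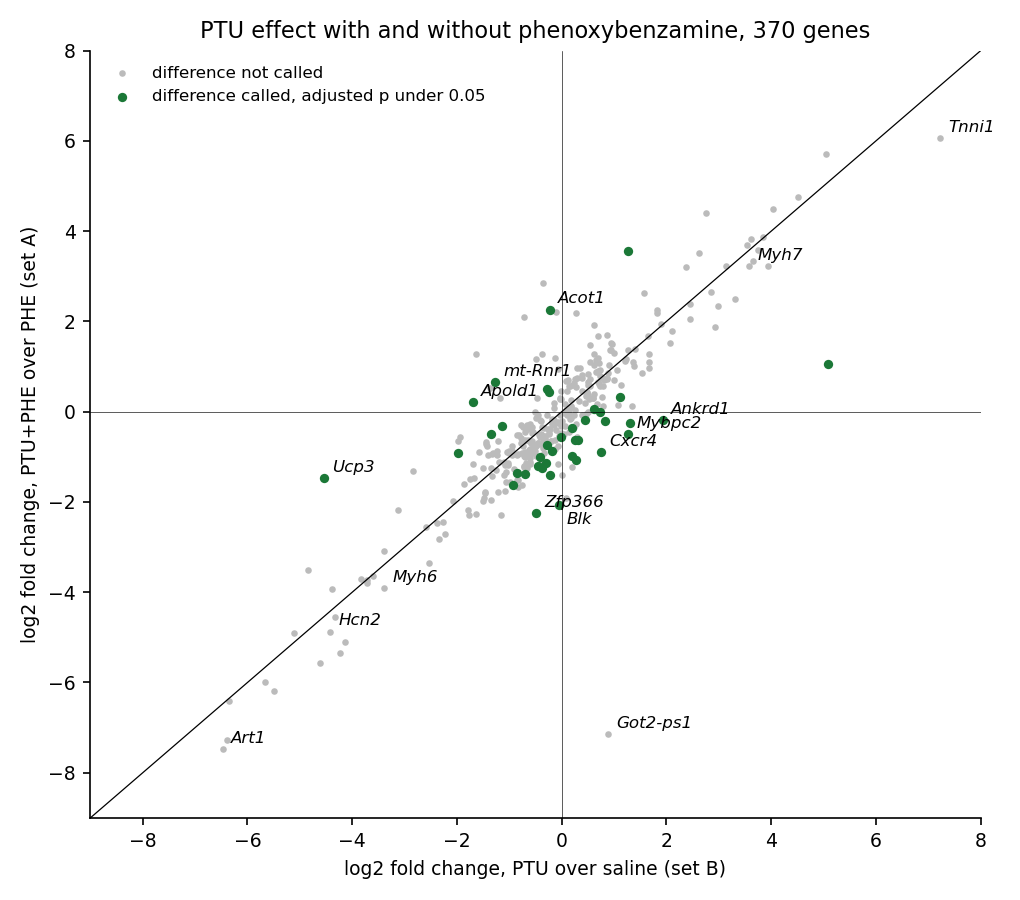
Log2 fold change of PTU+PHE over PHE in set A (vertical axis) against that of PTU over saline in set B (horizontal axis) for the 370 genes that the naming rules picked; the diagonal marks equal effects and green points are genes whose difference was called. Most genes, Tnni1, Myh6 and Art1 among them, lie near the diagonal, with Acot1 and Ucp3 above it and Ankrd1 and Mybpc2 below it.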

How the data were processed

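RNA from whole frozen hearts was extracted with Trizol and made into libraries with the TruSeq RNA kit v2, per the labels' protocols. The deposited table holds raw counts per gene; the submitters' processing notes name cutadapt 1.9, STAR 2.5.2b, featureCounts 1.5.1 and mm10, and the annotation and strand setting are not given in the sources used here. The authors did not normalise these counts. Groups were taken from the labels. Gene names, lengths and positions came from GENCODE annotation of GRCm38, the build of mm10, in which 51633 of 51826 identifiers had a symbol. Genes were filtered with filterByExpr (minimum count 10, minimum total 15), scaled by TMM and fitted with edgeR 4.0.16 in R 4.3.3 (glmQLFit robust, glmQLFTest, prior count 0.125) as 9 group means over all 27 libraries, with 18 residual degrees of freedom. Two-sided p-values were adjusted over the 19119 genes by the Benjamini-Hochberg method, with calls made under 0.05. A standard error is the size of the log2 fold change over the square root of F. CPM of single genes are per TMM-scaled library. Summed marker CPM are per total assigned reads, without the TMM factor. That factor was 1.07, 1.04 and 0.94 in PTU+PHE hearts 1, 2 and 3, against 0.86, 0.89 and 0.86 in PHE hearts. Marker sums are therefore not on the scale of the single genes. Where no read is counted, up to 3 remain possible, for counting error only. Differences between PTU effects are contrasts in the same fit. The fit was tested on simulated data.

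The gene lists (50) and the members named were chosen with earlier results of these data known. Named were the 12 largest rises and 12 largest falls that were called, had a mean of at least 5 CPM and did not overlap (1 and 3 unnamed gene models of that size were left out), up to 6 members of each list by p, all members of the thyroid hormone, sarcomere and adrenergic lists and of the isoform pairs, and the 5 largest differences each way; other list members were named for their role after their values were seen. The alternatives tried were DESeq2 1.42.0, RLE scaling, omission of the filter, an offset for transcript length, a sex covariate, a replicate block, restriction to set A or to the groups compared, and omission of each heart in turn. Leaving out both hearts numbered 3 was added after the data were seen. Same-numbered PTU+PHE and PHE hearts were not shown to be paired. Some genes picked by these rules are not reported here.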

Additional observations from a re-analysis of the deposited data

Results flagged for a closer look

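These 19 differences between PTU effects are listed because the test of the difference itself (edgeR's quasi-likelihood test, adjusted over all genes) was passed and they are among the 5 largest in each direction of 2 such tests. Against PTU alone, log2 fold changes under PHE were more positive for Ucp3 by 3.07, for Acot1 by 2.49, for mt-Rnr1 by 1.93 and for Apold1 by 1.91. Ucp3, a mitochondrial carrier, fell by 1.46 under PHE and by 4.54 with PTU alone. Acot1 rose by 2.26 under PHE and had a log2 fold change of -0.23, not called, with PTU alone. Differences were negative for Ankrd1 (-2.12), Blk (-2.01), Zfp366 (-1.77), Mybpc2 (-1.77) and Cxcr4 (-1.66). Ankrd1, a stretch-responsive cofactor, rose by 1.93 with PTU alone and was 862, 722 and 1458 CPM in PTU+PHE hearts, against 1215, 1168 and 1074 CPM in PHE hearts. Of these 9 calls 6 held in every alternative run. Apold1 was lost without PHE heart 1, Blk in 8 and Zfp366 in 6 alternatives. They cannot be told apart from differences between the sequencing sets.

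Against PTU under both blockers, within set A, differences were positive for Nr4a1 (4.17), Sik1 (2.81), Fam222a (2.38), Gem (2.37) and Apold1 (2.33). They were negative for Ankrd1 (-2.42), Prune2 (-2.40), Rasl11b (-2.23), Ccn2 (-2.15) and Rrm2 (-1.87). Nr4a1, an early gene responsive to cyclic AMP, was 49.6, 47.7 and 24.3 CPM in PTU+PHE hearts, against 24.4, 12.8 and 12.7 CPM in PHE hearts, and fell by 2.89 under both blockers. Of these 10 calls only those of Prune2 and Apold1 held in every alternative run.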

How the results depend on the processing

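The 7038 genes called ranged over 5067 to 7381 under the alternatives, without a change of more than 1.5 times in the total or in either direction. The 783 genes that differed from PTU alone were 1588 by DESeq2, 263 without both hearts numbered 3, and 232 to 1485 when 1 heart was left out. The 200 that differed from PTU under both blockers were 585 by DESeq2, 11 in a fit of set A alone, 9 in a fit of only the groups compared, and 69 to 453 when 1 heart was left out. The Ckb share of creatine kinase, higher by 0.31 percentage points in PTU+PHE hearts, was -0.10 to 0.94 when 1 heart was left out, turning negative without PTU+PHE heart 1. The cause of these shifts was not tested. Of the 24 largest rises and falls 22, and of the 281 called genes named by the rule 227, kept their call in every alternative, and none of them changed sign.

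A replicate block left 6634 genes called and 584 for the difference to PTU alone. Deviations of same-numbered hearts correlated at 0.14, 0.02 and 0.44, and those of other pairs at -0.32 to 0.29, so the numbers were not shown to pair the hearts. The block could not be fitted for the difference to both blockers, because PHE+PRO columns lack distinct numbers, nor set A alone for a difference to set B. Depth and 3 hearts a group limit genes near the filter, and sex, library shape and litter cannot be fully separated from group.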
